A study of Mus musculus with 9 samples.

Results

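YAP and TAZ, encoded by Yap1 and Wwtr1, are transcriptional coactivators that carry the output of the Hippo pathway. They do not bind DNA themselves and act through the TEAD transcription factors, encoded by Tead1 to Tead4. When the kinases MST1/2 and LATS1/2 are active, YAP and TAZ are phosphorylated and kept out of the nucleus, and when the kinases are inactive they enter the nucleus and, with TEAD, switch on genes for growth, adhesion and the extracellular matrix. In the liver the pathway is known for its control of organ size and of the biliary cell fate, and YAP activity is common in cholangiocarcinoma. The mRNA of these genes does not measure the location or the activity of the proteins.

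The genes described here are Yap1, Wwtr1, Tead1, Tead2, Tead3, Tead4, Vgll3, Amotl2, Ankrd1 and Lats2, chosen by symbol, 10 of the 55276 gene symbols in the deposited table. Vgll3 encodes a vestigial-like cofactor that binds TEAD proteins, Ankrd1 encodes a muscle and nuclear ankyrin repeat protein that is a widely used readout of YAP and TAZ, Amotl2 encodes an angiomotin that binds and retains YAP, and Lats2 encodes a LATS kinase. The latter pair are also targets of YAP and thus part of its negative feedback. All 10 genes passed the filter on low counts, as did 17672 genes in all.

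The cells were PPTR cells, a mouse intrahepatic cholangiocarcinoma (iCCA) line from liver cancer organoids of mice with Prom1CreERT2, in which Cre is driven from the Prom1 locus, and a Rosa-ZsGreen reporter. The genetic background of the line was shared by all groups, and no further treatment is given in the labels. Control cells (labelled WT, here Vcam1ctrl) were compared with 2 single-cell clones (Vcam1KO1 and Vcam1KO2) made with Cas9 and a guide to Vcam1, the gene of a cell adhesion molecule, with 3 libraries per group and 9 in all. According to the methods, the libraries of a group came from different passages, so each knockout group is 1 clone. The p values of a single clone measure the spread between passages, estimated within groups over all 9 libraries together. Those of the combined comparison also take in the difference between the 2 clones.

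Levels are in CPM, in which counts were divided by the scaled size of each library, and the libraries held 53415907 to 125223073 counts. Vcam1 averaged 266 CPM in Vcam1ctrl, 107 in Vcam1KO1 and 100.3 in Vcam1KO2 cells, and the change in both clones together was -1.36 on the log2 scale (standard error 0.17, adjusted p = 2.1e-04, quasi-likelihood test of edgeR, Benjamini-Hochberg adjusted, as for every adjusted p below). Of 7 tested markers of biliary and epithelial cells, 6 fell, and the summed level of the list of 8 went from 11423 to 12130 CPM in Vcam1ctrl libraries to 141 to 380 in Vcam1KO1 and 108 to 225 in Vcam1KO2 libraries. The tested marker that did not fall, Sox9, held most of the sum left in the clones. It averaged 127 CPM in Vcam1ctrl, 232 in Vcam1KO1 and 170 in Vcam1KO2 cells (combined log2 fold change 0.67, standard error 0.35, adjusted p = 0.15). The keratin genes Krt8 and Krt19 of this list were below 1 CPM in every clone library. Of 6 hepatocyte markers 5 were tested, and all 5 fell in the combined comparison. Among them, Hnf4a averaged 226 CPM in Vcam1ctrl cells and had 0 counts in every clone library. By clone, 4 of these markers fell in Vcam1KO1 and 5 in Vcam1KO2 cells. Apoa1, at 17 to 49 counts in Vcam1ctrl libraries, did not pass in Vcam1KO1 cells (adjusted p = 0.067). Alb passed there, but its levels overlapped between Vcam1KO1 and Vcam1ctrl libraries. Of 8 tested fibroblast and stellate markers, 6 rose in the combined comparison. The summed level over 11 genes, most of it Col1a1 in the clones, was 431 to 836 CPM in Vcam1ctrl, 10474 to 13048 in Vcam1KO1 and 6219 to 7531 in Vcam1KO2 libraries. In Vcam1KO1 cells alone 5 rose and 1 fell, and in Vcam1KO2 cells 6 rose and 0 fell. The gene that fell was Dcn, which averaged 74.6 CPM in Vcam1ctrl, 4.34 in Vcam1KO1 and 92.0 in Vcam1KO2 cells (log2 fold change -4.11 in Vcam1KO1, standard error 0.58, adjusted p = 2.2e-04). Lrat, a defining stellate gene, had at most 1 count in any library. Over all genes tested, 21.7% were called higher and 21.2% lower in the combined comparison. The part of these lists in the differences between the clones and Vcam1ctrl cells was not tested.

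The combined comparison of 6 Vcam1KO libraries with 3 Vcam1ctrl libraries asked how the genes differed between these cells, with the difference between clones counted as spread. The 6 libraries entered as independent although they came from 2 clones. Its p values can therefore be too small for a statement about knockout clones in general. An effect of Vcam1 targeting cannot be told apart from that of single-cell cloning. Tead2, Tead3, Vgll3 and Lats2 rose, Tead4 and Ankrd1 fell, and Yap1, Wwtr1, Tead1 and Amotl2 did not pass the test. In bulk RNA, fewer cells of a type and less RNA per cell cannot be told apart. Thus 6 of 10 genes were called, against 43.0% of all genes tested (21.7% higher and 21.2% lower). The levels of the 6 did not overlap between Vcam1KO and Vcam1ctrl libraries, nor did those of Yap1, which makes 7 of 10 against 44.2% of all genes. The median log2 fold change of the 10 genes was 0.27, beside 0.07 over all genes tested. The clone comparisons share the same 3 control libraries. In Vcam1KO1 cells 6 genes rose and 3 fell (59.9% of all genes were called, 29.9% higher and 30.0% lower), and in Vcam1KO2 cells 4 rose and 2 fell (51.4% of all genes, 25.3% higher and 26.1% lower). The levels of 9 genes did not overlap between Vcam1KO1 and Vcam1ctrl libraries and those of 7 did not overlap between Vcam1KO2 and Vcam1ctrl libraries, against 66.0% and 62.1% of all genes. With 10 genes chosen by name, these shares are descriptions only.

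**Figure D1:**
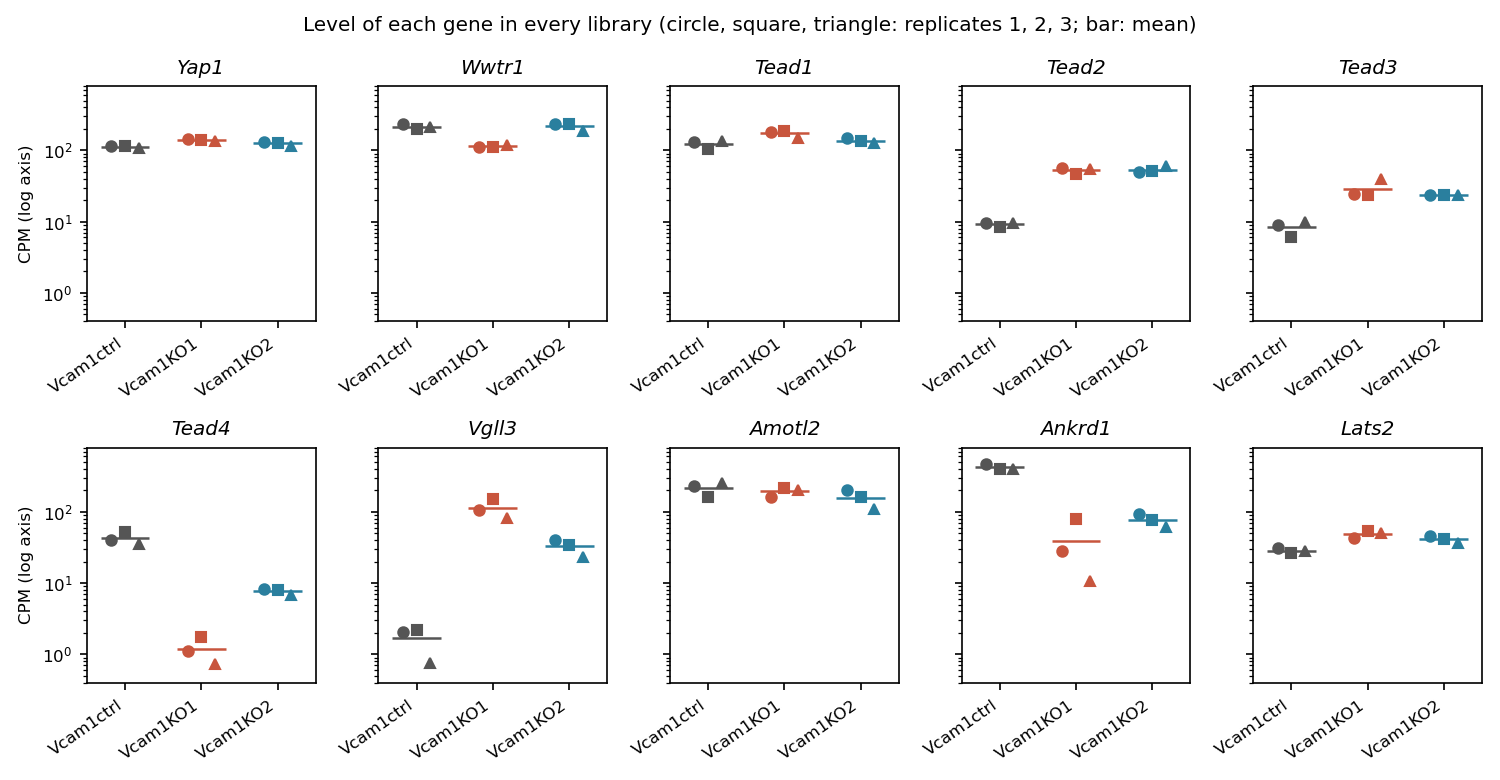
Level of each gene in CPM (log axis) in the 9 libraries, with the group on the horizontal axis, circle, square and triangle for replicates 1, 2 and 3, and a bar at the mean. Tead2, Tead3, Vgll3 and Lats2 lie above and Tead4 and Ankrd1 below the Vcam1ctrl libraries in all 6 clone libraries, while Wwtr1 is lower in Vcam1KO1 only.

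TEAD proteins recognise a short DNA motif, GGAATG, or CATTCC when read on the other strand. To show where it lies near the 10 genes, whether they changed or not, both strands of the 250 bases before each RefSeq start site (GRCm38.p6) were searched. It is a single motif, so no other motif can overlap it in the search. Of the 10 genes, 8 had an entry and 6 of these held the motif, namely Ankrd1, Vgll3, Amotl2, Tead3, Wwtr1 and Yap1. Ankrd1, Vgll3 and Tead3 were called in the combined comparison, and Amotl2, Wwtr1 and Yap1 were not. Over all promoters of the same length, 12.6% of 32851 windows and 14.4% of 27025 genes held it. Of 12 other YAP and TEAD targets with an entry 4 held it. Tead2 and Lats2, which were also called, held no match, and Tead1 and Tead4 were without an entry. The motif thus did not mark off the genes that changed. The windows of 30 bases below show the motif in capitals for the genes whose levels are described next, each read along the strand of its gene. They lie 205 and 118 bases (Ankrd1), 58 bases (Vgll3), 118 and 109 bases (both in 1 window) and, before another start site, 177 bases (Tead3), 60 bases (Amotl2) and 136 bases (Yap1) before the start site. For Wwtr1 a single site lies 165 and 131 bases before 2 neighbouring start sites. The gene spans printed below are from another annotation, GENCODE, in which some genes start further upstream. The sites of Ankrd1 and Amotl2 and the pair of Tead3 lie inside those spans. A match in these letters is not a measured binding site.
Ankrd1, chr19:36120037-36120066, minus strand: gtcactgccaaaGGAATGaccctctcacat
Ankrd1, chr19:36119950-36119979, minus strand: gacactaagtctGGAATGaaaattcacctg
Vgll3, chr16:65815114-65815143, plus strand: cccgcctccccaCATTCCggctaccctgcc
Tead3, chr17:28350706-28350735, minus strand: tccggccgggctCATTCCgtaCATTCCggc
Tead3, chr17:28350970-28350999, minus strand: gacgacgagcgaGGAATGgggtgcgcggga
Amotl2, chr9:102717727-102717756, plus strand: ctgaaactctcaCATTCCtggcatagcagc
Wwtr1, chr3:57576029-57576058, minus strand: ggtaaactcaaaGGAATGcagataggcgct
Yap1, chr9:8004720-8004749, minus strand: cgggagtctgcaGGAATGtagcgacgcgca

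The full window of Vgll3, the gene with the largest change of the 10, spans chr16:65814939-65815188 on the plus strand, and the single match is again in capitals.
Vgll3 promoter: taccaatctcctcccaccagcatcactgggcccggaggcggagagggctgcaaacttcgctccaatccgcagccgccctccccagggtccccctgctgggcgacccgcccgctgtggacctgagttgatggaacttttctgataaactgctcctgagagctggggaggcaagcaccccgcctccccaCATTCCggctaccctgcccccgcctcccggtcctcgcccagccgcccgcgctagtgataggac

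Of the coactivators, Yap1 (chr9:7931999-8004596, minus strand) changed little. Its levels were 115, 115 and 109 CPM in Vcam1ctrl, 142, 140 and 135 in Vcam1KO1 and 132, 125 and 117 in Vcam1KO2 libraries. All clone libraries lay above all control libraries, but by a small margin. The log2 fold change was 0.22 in the combined comparison (standard error 0.10, adjusted p = 0.10), 0.30 in Vcam1KO1 (standard error 0.09, adjusted p = 0.018) and 0.14 in Vcam1KO2 cells (standard error 0.09, adjusted p = 0.22). The rise in Vcam1KO1 cells kept its direction but was called in 3 of the 9 fits that left out 1 library, with adjusted p values of 0.019 to 0.10. The calls were lost without any 1 of Vcam1ctrl replicates 1, 2 or 3, Vcam1KO1 replicates 1 or 2 or Vcam1KO2 replicate 1.

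Wwtr1, the gene of TAZ (chr3:57455649-57575910, minus strand), differed between the clones. It stood at 232, 196 and 215 CPM in Vcam1ctrl and at 111, 113 and 119 in Vcam1KO1 libraries, but at 232, 232 and 187 in Vcam1KO2 libraries. The Vcam1KO1 libraries were all below the others, and the Vcam1KO2 libraries overlapped the controls. Wwtr1 fell in Vcam1KO1 cells by 0.91 on the log2 scale (standard error 0.12, adjusted p = 1.5e-04), and its log2 fold change in Vcam1KO2 cells was 0.02 (standard error 0.12, adjusted p = 0.92). The difference between the clones was itself past the threshold, at -0.92 (standard error 0.12, adjusted p = 4.2e-04). The combined comparison, in which this difference counts as spread, gave -0.37 (standard error 0.28, adjusted p = 0.30). When the difference between clones was taken out of the spread, by averaging the clones' contrasts, the value was -0.45 with an adjusted p of 0.0039.

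Among the TEAD factors, Tead2 rose in both clones. TEAD2 is a DNA-binding partner of YAP known for its high expression in early embryos. Tead2 (chr7:45215753-45233644, plus strand) had 9.51, 8.32 and 9.52 CPM in Vcam1ctrl, 56.8, 47.3 and 55.5 in Vcam1KO1 and 49.0, 51.2 and 59.7 in Vcam1KO2 libraries. The lowest clone library was far above the highest control library, and the clones overlapped each other. The level was 5.84-fold higher in the combined comparison (log2 fold change 2.55, standard error 0.13, adjusted p = 1.3e-06). The difference between the clones was -0.00 on the log2 scale with a standard error of 0.12 (adjusted p = 0.995).

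Tead3 (chr17:28331671-28350817, minus strand), whose product is prominent in placenta, rose as well. It had 8.96, 6.13 and 9.75 CPM in Vcam1ctrl, 24.1, 23.3 and 39.2 in Vcam1KO1 and 23.5, 23.9 and 23.3 in Vcam1KO2 libraries. Of the 6 clone libraries 5 lay close together, Vcam1KO1 replicate 3 stood above them, and the controls were lower without overlap. The combined log2 fold change was 1.66 (standard error 0.24, adjusted p = 5.2e-04), and 1.52 without Vcam1KO1 replicate 3. The values by clone were 1.80 in Vcam1KO1 and 1.51 in Vcam1KO2 cells (adjusted p = 1.5e-04 and 5.5e-04).

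Tead4 (chr6:128224288-128300823, minus strand), required for the trophectoderm in the early embryo, moved the other way. It had 39.9, 51.6 and 35.7 CPM in Vcam1ctrl, 1.11, 1.73 and 0.73 in Vcam1KO1 and 8.40, 7.90 and 6.77 in Vcam1KO2 libraries. The 3 groups did not overlap, with Vcam1KO1 the lowest, and even there the level rested on 46 to 166 counts per library. The level was 35.6-fold lower in Vcam1KO1 cells (log2 fold change -5.14, standard error 0.32, adjusted p = 1.3e-06) and 5.51-fold lower in Vcam1KO2 cells (log2 fold change -2.46, standard error 0.28, adjusted p = 7.0e-05). The clones differed from each other by -2.67 on the log2 scale (standard error 0.29, adjusted p = 1.7e-04).

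Tead1 (chr7:112679318-112906807, plus strand), a broadly expressed TEAD gene, had 132, 103 and 136 CPM in Vcam1ctrl, 184, 188 and 148 in Vcam1KO1 and 149, 135 and 125 in Vcam1KO2 libraries. The Vcam1KO2 libraries overlapped the controls and the Vcam1KO1 libraries lay above them. It rose in Vcam1KO1 cells by 0.49 on the log2 scale (standard error 0.14, adjusted p = 0.015), a call lost without Vcam1ctrl replicate 2 (adjusted p = 0.095), Vcam1KO1 replicate 1 (0.088) or Vcam1KO1 replicate 2 (0.053). The value in Vcam1KO2 cells was 0.14 (standard error 0.14, adjusted p = 0.43), and the difference between the clones, 0.35, did not pass the test (adjusted p = 0.084).

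**Figure D2:**
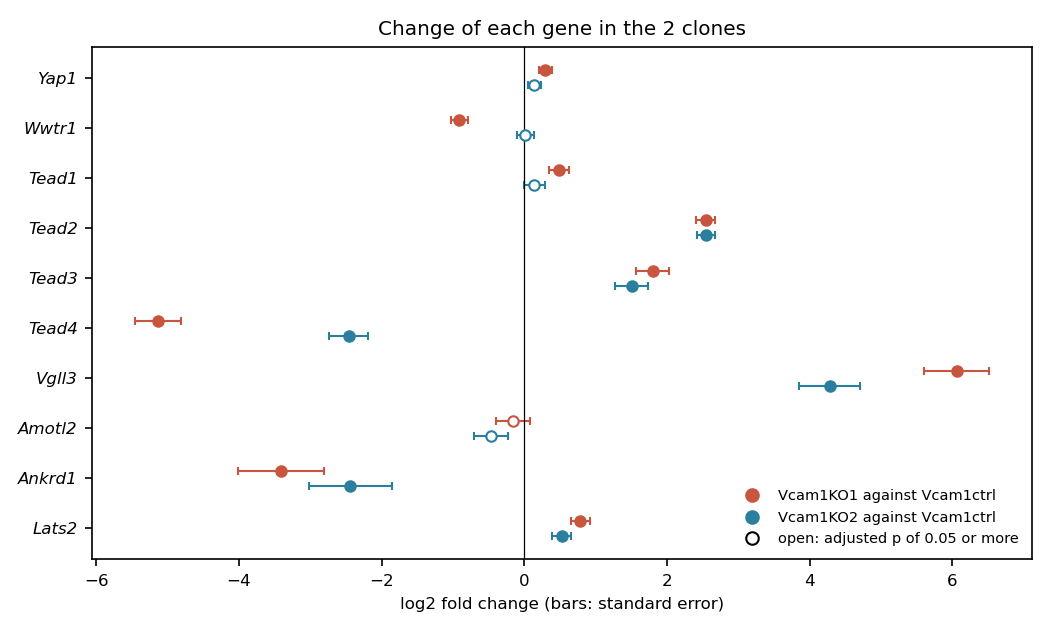
Log2 fold change of each gene in Vcam1KO1 and Vcam1KO2 cells against the same Vcam1ctrl libraries, with bars for the standard error and open symbols where the adjusted p was 0.05 or more. Vgll3 has the largest rise (6.06 and 4.28) and Tead4 the largest fall (-5.14 and -2.46), and Wwtr1, Tead4 and Vgll3 differ between the clones.

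To set the genes beside each other, CPM was divided by the length of all annotated exons of a gene in kb. Per kb, the 4 TEAD genes together had 24.0 ± 0.64 CPM in Vcam1ctrl, 28.5 ± 0.81 in Vcam1KO1 and 26.8 ± 0.37 in Vcam1KO2 cells (SD, n = 3 each). With the longest transcript as the length the sums were 31.3, 41.8 and 38.7 CPM per kb in the same order, and with either length the clone libraries lay above the control libraries. Per kb of all exons, Tead4 made up 48.9% ± 8.3 of the sum in Vcam1ctrl, 1.17% ± 0.52 in Vcam1KO1 and 7.97% ± 0.89 in Vcam1KO2 cells. Tead2 went the other way, from 7.94% ± 0.77 to 38.9% ± 2.8 and 41.5% ± 4.2. Tead3 went from 5.16% ± 1.3 to 15.1% ± 4.7 and 13.1% ± 0.34, and Tead1 had 38.0% ± 6.3, 44.8% ± 6.0 and 37.5% ± 3.3 in the same order. Tead4 was thus the largest part in Vcam1ctrl replicates 1 and 2 and about level with Tead1 in replicate 3, and Tead1 and Tead2 led in the clones. With the longest transcript as the length, Tead4 was ahead of Tead1 in Vcam1ctrl replicate 2 alone, and the mean Tead4 share was 44.1% in Vcam1ctrl, 0.94% in Vcam1KO1 and 6.46% in Vcam1KO2 cells. These shares are descriptions without a test.

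Wwtr1 made up 78.5% ± 1.6 of the sum of Yap1 and Wwtr1 per kb in Vcam1ctrl, 61.4% ± 1.4 in Vcam1KO1 and 77.0% ± 1.3 in Vcam1KO2 cells (SD, n = 3 each). With the longest transcript as the length the shares were 68.0%, 48.0% and 66.0%, so which of the coactivator mRNAs leads in Vcam1KO1 cells depends on the length used. The order of the groups did not.

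**Figure D3:**
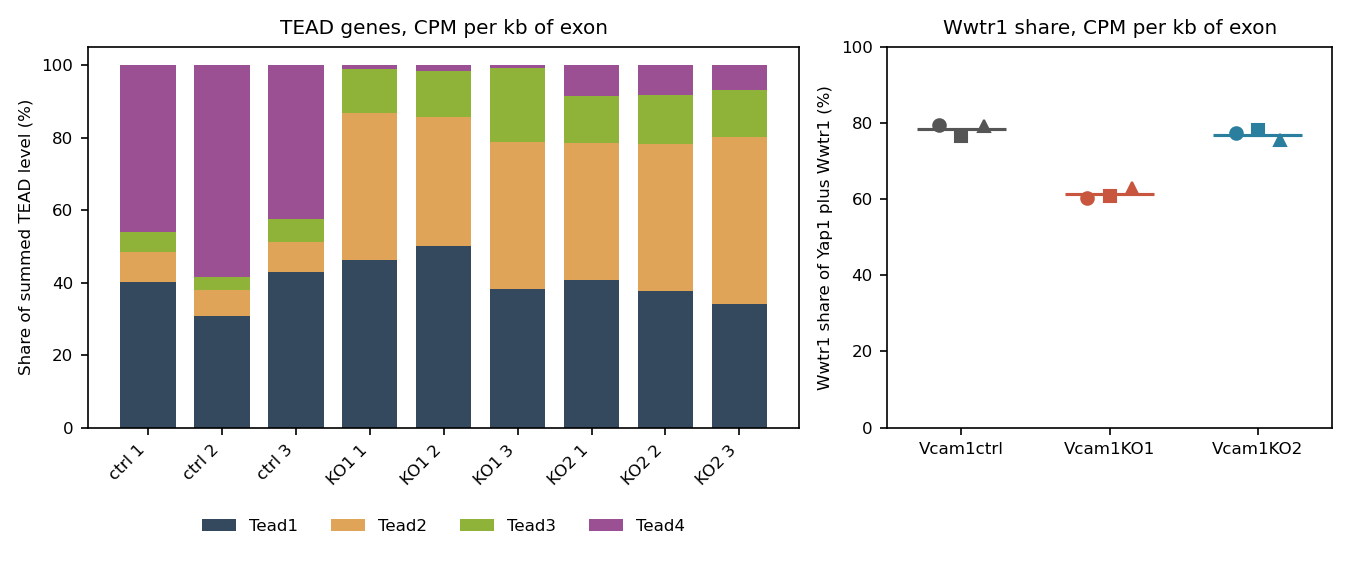
Left, share in % of the 4 TEAD genes in their summed level (CPM per kb of exon) in each of the 9 libraries. Right, share in % of Wwtr1 in the sum of Yap1 and Wwtr1 per kb, with a symbol per library and a bar at the mean. Tead4 holds 42.5 to 58.3% in Vcam1ctrl libraries and at most 8.63% in any clone library, and the Wwtr1 share is lower in the 3 Vcam1KO1 libraries.

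Vgll3 (chr16:65815257-65866368, plus strand), the TEAD cofactor, showed the largest change of the 10 genes. It had 2.08, 2.23 and 0.75 CPM in Vcam1ctrl, 105, 149 and 83.0 in Vcam1KO1 and 40.4, 34.7 and 23.2 in Vcam1KO2 libraries. The groups did not overlap, with Vcam1KO1 the highest and the controls the lowest, at 59 to 261 counts per library. The level was 66.7-fold higher in Vcam1KO1 cells (log2 fold change 6.06, standard error 0.46, adjusted p = 4.3e-06) and 19.4-fold higher in Vcam1KO2 cells (log2 fold change 4.28, standard error 0.42, adjusted p = 3.0e-05). The clones differed by 1.78 on the log2 scale (standard error 0.37, adjusted p = 0.0052). The summed level of the fibroblast and stellate markers given above moves in the same direction, and the part of these markers in the change of Vgll3 was not tested.

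Of the other vestigial-like genes, Vgll1 and Vgll2 did not pass the filter on low counts. Vgll4, whose product competes with YAP for TEAD, had 50.8, 53.1 and 53.1 CPM in Vcam1ctrl, 119, 105 and 184 in Vcam1KO1 and 61.0, 62.8 and 48.6 in Vcam1KO2 libraries. It is named outside the rule, after its values were seen, as the only tested gene of its list. It rose in Vcam1KO1 cells by 1.38 on the log2 scale (standard error 0.20, adjusted p = 2.8e-04), and the clones differed by 1.24 (standard error 0.20, adjusted p = 0.0014). Its combined log2 fold change of 0.89 did not pass the test (standard error 0.40, adjusted p = 0.10).

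Ankrd1, the target gene (chr19:36111961-36120099, minus strand), fell in both clones. It had 468, 397 and 396 CPM in Vcam1ctrl, 28.0, 79.9 and 10.6 in Vcam1KO1 and 94.7, 76.8 and 60.8 in Vcam1KO2 libraries. All clone libraries were far below the controls, and within Vcam1KO1 the spread between libraries was nearly as wide as the mean. The level was 7.20-fold lower in the combined comparison (log2 fold change -2.85, standard error 0.53, adjusted p = 0.0023), 10.7-fold lower in Vcam1KO1 (log2 fold change -3.41, standard error 0.61, adjusted p = 9.5e-04) and 5.43-fold lower in Vcam1KO2 cells (log2 fold change -2.44, standard error 0.58, adjusted p = 0.0062). Without Vcam1KO1 replicate 2 the log2 fold change in Vcam1KO1 cells was -4.45, and it was -2.96 without Vcam1KO1 replicate 3. The clones did not differ beyond that spread (log2 difference -0.97, standard error 0.56, adjusted p = 0.20), but without Vcam1KO1 replicate 2 the difference was -2.01 with an adjusted p of 0.0054.

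Amotl2 (chr9:102716672-102733418, plus strand) had 229, 162 and 258 CPM in Vcam1ctrl, 164, 218 and 203 in Vcam1KO1 and 201, 161 and 110 in Vcam1KO2 libraries. The groups overlapped. The log2 fold change was -0.30 in the combined comparison (standard error 0.23, adjusted p = 0.31), -0.15 in Vcam1KO1 and -0.46 in Vcam1KO2 cells (adjusted p = 0.61 and 0.14). The last passed the threshold only when Vcam1ctrl replicate 2 was left out (-0.66, adjusted p = 0.045).

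Lats2 (chr14:57689662-57758388, minus strand), the kinase gene, had 31.1, 26.2 and 28.5 CPM in Vcam1ctrl, 42.9, 54.6 and 50.3 in Vcam1KO1 and 45.4, 42.2 and 36.1 in Vcam1KO2 libraries. The clone libraries were moderately higher than all controls. The combined log2 fold change was 0.66 (standard error 0.14, adjusted p = 0.0052), with 0.78 in Vcam1KO1 and 0.53 in Vcam1KO2 cells (adjusted p = 7.3e-04 and 0.0083). Of the 7020 sequences of 31 bases in its transcripts 41.7% also occur in another annotated gene, nearly all of them in the readthrough gene Gm49361, which had at most 36 counts in any library. Ankrd1 and Lats2, which are both targets of YAP, thus changed in opposite directions and Amotl2 did not pass the test.

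Between the clones, tested directly, Wwtr1 and Tead4 were lower and Vgll3 higher in Vcam1KO1 cells, so 3 of 10 genes were called, against 38.7% of all genes tested (20.2% higher and 18.5% lower). The remaining 7 did not pass. The levels of 4 genes, these and Yap1, did not overlap between the clones, against 54.9% of all genes.

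Per kb of exon, the order in Vcam1ctrl cells was Ankrd1 (146 ± 14.2 CPM per kb), Wwtr1 (44.9 ± 3.7), Amotl2 (34.4 ± 7.8), Yap1 (12.2 ± 0.39), Tead4 (11.8 ± 2.3), Tead1 (9.10 ± 1.3), Lats2 (4.10 ± 0.35), Tead2 (1.90 ± 0.14), Tead3 (1.23 ± 0.28) and Vgll3 (0.24 ± 0.12; SD, n = 3 each). Yap1 and Tead4 overlapped, as did Tead4 and Tead1, and the other neighbours did not. Wwtr1 and Amotl2 were only just apart, at 41.1 and 41.0 for the nearest libraries, and with the longest transcript as the length Amotl2 came before Wwtr1.

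In Vcam1KO1 cells Amotl2 (31.01 ± 4.5 CPM per kb) and Wwtr1 (23.9 ± 0.82) led and did not overlap, followed by Vgll3 (15.8 ± 4.8), Yap1 (15.0 ± 0.40), Ankrd1 (13.7 ± 12.5), Tead1 (12.8 ± 1.6) and Tead2 (11.1 ± 1.1), which overlapped from each to the next. Lats2 (7.06 ± 0.85) and Tead3 (4.30 ± 1.3) came next, and Tead4 was last (0.33 ± 0.14). Neither Tead2 and Lats2 nor any later neighbours overlapped. Vgll3 thus overlapped Yap1 in Vcam1KO1 cells and was below every other gene of the 10 in Vcam1ctrl cells. With the longest transcript as the length it was lower than Yap1 in Vcam1KO1 cells (16.0 against 26.4 CPM per kb).

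In Vcam1KO2 cells the order was Wwtr1 (45.4 ± 5.5 CPM per kb), Ankrd1 (26.8 ± 5.9), Amotl2 (25.0 ± 7.3), Yap1 (13.5 ± 0.85), Tead2 (11.1 ± 1.2), Tead1 (10.0 ± 0.88), Lats2 (5.91 ± 0.68), Vgll3 (4.61 ± 1.2), Tead3 (3.51 ± 0.04) and Tead4 (2.14 ± 0.23). Neighbours overlapped between Ankrd1 and Amotl2, Tead2 and Tead1, Lats2 and Vgll3, and Vgll3 and Tead3. Tead4 was the last gene in both clones.

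Of 10 kinases and adaptors upstream of YAP, 3 rose, 1 fell and 6 did not pass the test in the combined comparison, near the 43.0% called over all genes, with a median log2 fold change of 0.08 beside 0.07 over all genes. Map4k4, which activates LATS kinases, rose by 0.94 on the log2 scale (standard error 0.13, adjusted p = 5.0e-04), Stk3, the gene of MST2, by 0.80 (standard error 0.23, adjusted p = 0.020) and Taok2, an upstream kinase, by 0.57 (standard error 0.20, adjusted p = 0.045). By clone, Taok2 passed in Vcam1KO1 cells (0.80, adjusted p = 0.0017) and not in Vcam1KO2 cells (0.30, adjusted p = 0.13). Stk4, the gene of MST1, fell by 0.38 on the log2 scale (standard error 0.10, adjusted p = 0.011). In the clones alone, 4 rose and 2 fell in Vcam1KO1 cells (59.9% of all genes were called), and 2 rose and 2 fell in Vcam1KO2 cells (51.4% of all genes).

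Of 14 genes of upstream scaffolds and polarity proteins, which tie the pathway to cell junctions, 3 rose, 5 fell and 6 did not pass, beside 21.7% higher and 21.2% lower over all genes, with a median log2 fold change of -0.00. Among those with a mean of at least 5 CPM, Patj, of the Crumbs polarity complex, went from 39.2 CPM in Vcam1ctrl to 3.06 in Vcam1KO1 and 1.13 in Vcam1KO2 cells (log2 fold change -4.22, standard error 0.43, adjusted p = 6.6e-05). Mpp5, which encodes the PALS1 partner of PATJ, fell by 1.98 on the log2 scale (standard error 0.17, adjusted p = 2.0e-05), and Wwc1, the gene of the scaffold KIBRA, fell by 2.02 (standard error 0.65, adjusted p = 0.031). Ajuba, which encodes a LIM protein that restrains LATS, fell by 0.61 (standard error 0.14, adjusted p = 0.0080).

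Amot, the gene of angiomotin and a relative of Amotl2, rose instead. It had 33.2, 23.3 and 36.4 CPM in Vcam1ctrl, 197, 224 and 225 in Vcam1KO1 and 90.6, 80.6 and 80.0 in Vcam1KO2 libraries, with no overlap between the 3 groups. Its combined log2 fold change was 2.27 (standard error 0.45, adjusted p = 0.0033). Wwc2, a relative of Wwc1, rose by 0.54 (standard error 0.17, adjusted p = 0.030). By clone, Wwc2 passed in Vcam1KO1 cells (0.76, adjusted p = 2.5e-04) and not in Vcam1KO2 cells (0.28, adjusted p = 0.053). In the clones alone, 5 rose and 5 fell in Vcam1KO1 cells (59.9% of all genes were called), and 1 rose and 5 fell in Vcam1KO2 cells (51.4% of all genes). Epithelial markers fell in the same libraries as Patj, Mpp5 and Wwc1, by the summed levels given above, and their part was not tested.

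**Figure D4:**
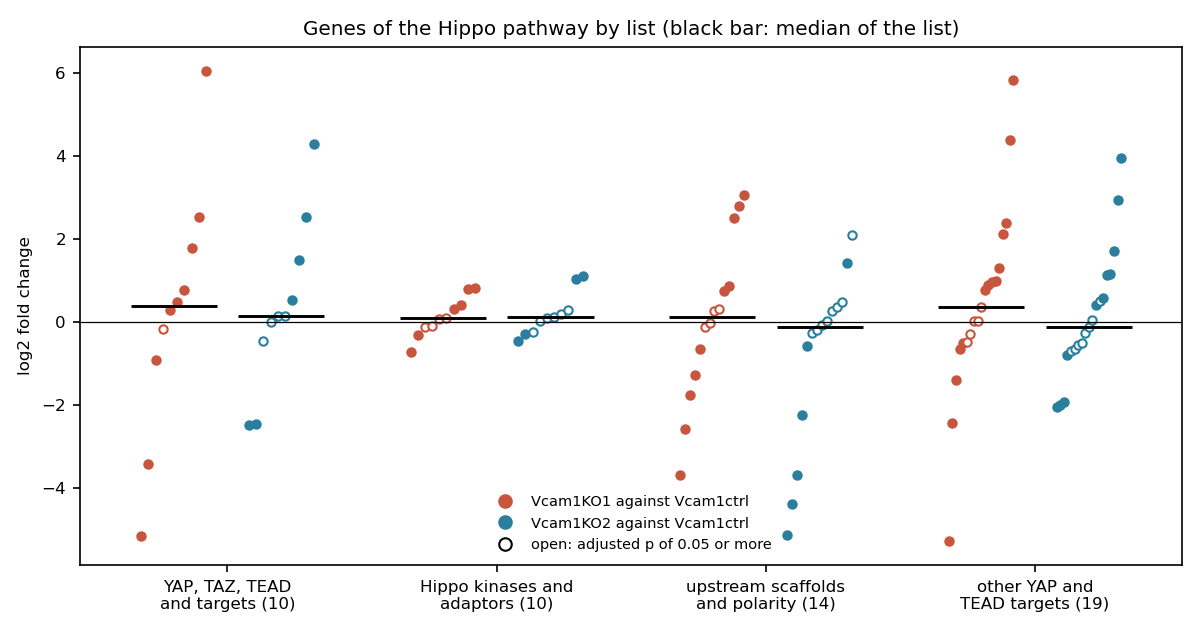
Log2 fold change of the genes of 4 lists in each clone against the same Vcam1ctrl libraries, a point per gene, with open symbols where the adjusted p was 0.05 or more and a black bar at the median of the list. The medians lie between -0.12 and 0.39, while single genes of the scaffolds and of the targets reach beyond 2 in both directions in each clone. For the scaffolds in Vcam1KO2 cells the only rise beyond 2 is Dchs1 (2.10, adjusted p = 0.056), at 4 to 12 counts per library.

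Other known targets of YAP and TEAD did not share a direction. Of 19 genes 7 rose, 3 fell and 9 did not pass in the combined comparison (median log2 fold change 0.21, with 43.0% of all genes called), 9 rose and 5 fell in Vcam1KO1 cells (median 0.37, with 59.9% of all genes called), and 7 rose and 4 fell in Vcam1KO2 cells (median -0.10, with 51.4% of all genes called). The largest rises were in Ccdc80, which encodes a matrix-associated protein, and Tgfb2, which encodes a TGF-beta ligand. Ccdc80 had 14.5, 20.1 and 9.02 CPM in Vcam1ctrl, 658, 749 and 1086 in Vcam1KO1 and 236, 241 and 200 in Vcam1KO2 libraries, without overlap between the groups (combined log2 fold change 5.18, standard error 0.76, adjusted p = 5.6e-04). Tgfb2 averaged 11.4 CPM in Vcam1ctrl, 241 in Vcam1KO1 and 87.5 in Vcam1KO2 cells (log2 fold change 3.85, standard error 0.60, adjusted p = 8.2e-04). Both are also expressed by fibroblasts. The summed level of the fibroblast and stellate markers rose in the same libraries, and the part of these markers in the changes of Ccdc80 and Tgfb2 was not tested.

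Rbms3, the gene of an RNA-binding protein, rose by 2.10 on the log2 scale (standard error 0.34, adjusted p = 0.0011) and Asap1, which encodes a GTPase-activating protein for Arf, by 1.24 (standard error 0.13, adjusted p = 8.5e-05). Nt5e, the gene of the ectonucleotidase CD73, averaged 171 CPM in Vcam1ctrl, 4.40 in Vcam1KO1 and 43.1 in Vcam1KO2 cells (log2 fold change -2.85, standard error 0.84, adjusted p = 0.021). Crim1, which encodes a transmembrane protein that binds BMPs, fell by 1.63 (standard error 0.22, adjusted p = 3.6e-04).

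Ccn1, Ccn2 and Axl were chosen after their values were seen, as the most used readouts of YAP beside Ankrd1, and none of the 3 passed the combined test. Ccn1, the gene of CYR61, had 831, 197 and 950 CPM in Vcam1ctrl, 460, 686 and 495 in Vcam1KO1 and 611, 534 and 215 in Vcam1KO2 libraries. Its groups overlapped, and Vcam1ctrl replicate 2 lay below every clone library. The means were 659, 547 and 453 CPM (log2 fold change -0.40, standard error 0.47, adjusted p = 0.52). Axl, a receptor tyrosine kinase gene, averaged 374, 385 and 386 CPM in the same order (log2 fold change 0.05, standard error 0.15, adjusted p = 0.83). Ccn2, the gene of CTGF, had 291, 281 and 422 CPM in Vcam1ctrl, 639, 593 and 484 in Vcam1KO1 and 241, 229 and 109 in Vcam1KO2 libraries. The control libraries lay between those of the clones without overlap. Ccn2 rose in Vcam1KO1 cells (log2 fold change 0.79, standard error 0.29, adjusted p = 0.039), fell in Vcam1KO2 cells (-0.78, standard error 0.29, adjusted p = 0.047) and differed between the clones by 1.57 (standard error 0.29, adjusted p = 0.0030). Among these readouts, Ankrd1 was the only one called lower in both clones.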

How the data were processed

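Stranded paired-end mRNA libraries were pseudoaligned by the authors with kallisto 0.46.1 to transcripts of mm10, and the deposited table holds estimated counts per gene symbol (expected counts), whole numbers without normalization; the step that summed transcripts to genes is not given in the sources used here. The 9 libraries were grouped by title into Vcam1ctrl, Vcam1KO1 and Vcam1KO2. Counts were scaled with TMM, filtered with filterByExpr and tested over all 17672 genes with edgeR 4.0.16 (R 4.3.3) by the quasi-likelihood test with Benjamini-Hochberg adjustment at 0.05. The combined comparison used 2 groups, the others 3 groups. CPM values use the TMM factors. Fold changes in words are ratios of mean CPM, and log2 fold changes are fitted values with standard errors of the log2 fold change over the square root of F. The model was tested on simulated data.

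Gene positions and lengths are from GENCODE vM21 (GRCm38), another release than the counting used, and promoters from RefSeq. The genes and lists were chosen with earlier results of these data known. List genes are named if called in the combined comparison with a mean of at least 5 CPM, at most 6 per list by size of change. Depth was 53415907 to 125223073 counts, with 3 libraries per group, and which of these limited precision was not tested. Alternatives were limma-voom (limma 3.58.1), the test of the study, DESeq2 1.42.0, upper-quartile scaling, no filter, a mean of at least 1 CPM, each library left out, the average of the clones' contrasts and the longest transcript as length. Figures were drawn with matplotlib 3.10.9. Part of the genotype of the line is not reported here.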

Additional observations from a re-analysis of the deposited data

Results flagged for a closer look

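The clones differed from each other, by the direct test between them, in 3 of the 10 genes. Wwtr1 was lower in Vcam1KO1 than in Vcam1KO2 cells by a log2 difference of -0.92, Tead4 by -2.67, and Vgll3 was higher by 1.78. Each call held in all 9 fits that left out 1 library, with adjusted p values (edgeR, Benjamini-Hochberg) up to 0.0031 for Wwtr1, 0.0012 for Tead4 and 0.024 for Vgll3. With 1 clone per knockout group, the clone and its history of passages cannot be told apart.

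In Tead3, Vcam1KO1 replicate 3 stood apart among the 6 clone libraries. On the log2 scale its gap to the next library was 0.94 of the whole range, above Dixon's limit for 6 values, which chance passes in about 1 of 20 groups. Tead3 was 39.2 CPM there and 23.3 to 24.1 CPM in the others. This library also stood apart in its group over all genes tested. The chi-square per degree of freedom between libraries was 256 and 305 against Vcam1KO1 replicates 1 and 2, and 39.0 between those. For Vcam1KO2 replicate 3 it was 168 and 115 against replicates 1 and 2, and 36.0 between those.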

How the results depend on the processing

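The numbers of the 10 genes called, and of all genes called, stayed within 1.5 times of those reported in every alternative. With each library left out in turn, 5583 to 8208 genes were called in the combined comparison (7591 with all), 9518 to 10867 in Vcam1KO1 (10586), 7741 to 10203 in Vcam1KO2 (9087) and 4943 to 7408 between the clones (6834). Averaging the clones' contrasts called 10464 genes and 8 of the 10, adding Yap1 (0.22, adjusted p = 0.037) and Wwtr1.

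Values near 0 changed sign. For Wwtr1 in Vcam1KO2 cells (0.02) the log2 fold change was -0.022 with DESeq2, -0.051 with upper-quartile scaling, -0.013 without a filter, -0.024 with a filter at a mean of 1 CPM, and -0.070 to 0.096 with a library left out (-0.070 without Vcam1ctrl replicate 2, -0.044 without Vcam1KO2 replicate 1 and -0.032 without Vcam1KO2 replicate 2). For Tead2 between the clones (-0.00) it was 0.066 with upper-quartile scaling, 0.032 with a filter at a mean of 1 CPM, and -0.11 to 0.073 with a library left out (0.073 without Vcam1KO1 replicate 2 and 0.053 without Vcam1KO2 replicate 3). Without a filter the calls of Yap1 (0.24, adjusted p = 0.21) and Tead1 (0.42, adjusted p = 0.060) in Vcam1KO1 cells were lost. The difference of Tead1 between the clones was called with upper-quartile scaling (0.41, adjusted p = 0.042) and without Vcam1KO1 replicate 3 (0.45, adjusted p = 0.036). The cause of these changes was not tested.

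With the longest transcript as length, 21 of 30 levels per kb moved by more than 1 SD. No paired analysis was possible because the labels give each library its own number, with none shared between groups. The lowest counts behind a level were 46 to 166 (Tead4 in Vcam1KO1) and 59 to 261 (Vgll3 in Vcam1ctrl). Each knockout group held 3 libraries of 1 clone, and other clones were not analysed here.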

Other observations

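For each gene, the 2 genes with the most similar pattern over the 9 libraries were looked up among 10877 tested genes with a mean of at least 5 CPM, by Pearson's r of log2 CPM. All pairs share the large differences between the 3 groups, so r is a description and carries no p. Tead2 was closest to Sdc3 (r = 0.999), a syndecan gene at 77.0 CPM in Vcam1ctrl, 344 in Vcam1KO1 and 353 in Vcam1KO2 cells, and then to Gamt (0.998). Tead4 was closest to Areg (0.996), the gene of the EGF receptor ligand amphiregulin, which averaged 442, 0.11 and 14.5 CPM in the same order, and then to Cdkn2aipnl (0.996). Vgll3 was closest to Col5a2 (0.99), a fibrillar collagen gene at 54.6, 1648 and 733 CPM, and to Afap1l2 (0.99). Wwtr1 was closest to Mst1 (0.99), which encodes macrophage-stimulating protein and is not the Hippo kinase gene, and to Bst2 (0.99).

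Tead3 was closest to Smarcc2 (0.996) and Bag6 (0.995), Ankrd1 to Tfrc and Lurap1l (both 0.98), Lats2 to Lpgat1 and Fnip1 (both 0.98), Yap1 to Arl8b (0.98) and Washc2 (0.97), and Tead1 to Slc36a1 (0.97) and Tmem184c (0.96). Amotl2 had the lowest values, with Fosb (0.94), an early response gene at 742 CPM in Vcam1ctrl, 428 in Vcam1KO1 and 86.8 in Vcam1KO2 cells, and Klf11 (0.93).

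Within groups, some libraries lay at an end for several of the 10 genes. The same counts were not made over all genes tested, so they are descriptions only. Vcam1KO2 replicate 3 was the lowest of its group for 9 and Vcam1KO2 replicate 1 the highest for 8. Vcam1ctrl replicate 2 was the lowest for 6 but the highest for 3, and Vcam1KO1 replicate 2 was the highest for 6 but the lowest for 2.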
